A study of Mus musculus with 4 samples.

Results

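The genes described here are chromatin modifiers other than the histone deacetylases, that is, enzymes and core enzyme subunits that place or remove methyl and acetyl groups on histones, other proteins or DNA. Members were chosen by name from the platform's gene symbols: the Sirt, Kdm, Kmt, Setd and Dnmt genes, the numbered Kat and Tet genes, and Ezh1, Ezh2, Suz12, Eed, Ep300 and Crebbp. This gave 64 of the 18193 genes with a probe set that names a single gene. Where a member had several probe sets, the one with the highest mean log2 signal over the 4 arrays was used. RNA came from 2 samples of G-MDSC (granulocytic myeloid-derived suppressor cells) and 2 of neutrophils, all from female C57BL/6 mice of an age not stated, and each sample was hybridised to 1 Affymetrix array. The G-MDSC were spleen cells of mice that had carried a subcutaneous EL4 lymphoma for 3.5 weeks, described as CD11b+Ly6G+Ly6Clow and enriched with Ly6G microbeads. The neutrophils were peritoneal cells of mice without a stated tumour, given 2 intraperitoneal injections of 1.5 ml of 12% casein 16 h apart and killed 3 h later. Cells bearing F4/80, a macrophage antigen, were removed before the Ly6G selection. No genotype or transgene is stated, and red cells were lysed in every sample.

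Histone acetyltransferases loosen chromatin and mark active promoters and enhancers, and sirtuins are NAD-dependent enzymes that remove acetyl and related acyl groups. Lysine methyltransferases and demethylases write and erase marks that, depending on the residue, go with active or silent genes. Polycomb repressive complex 2 methylates histone H3 at silenced genes, DNA methyltransferases methylate cytosine, and Tet dioxygenases oxidise that methyl group. Several of these genes, among them Tet2, Dnmt3a, Ezh2 and Kmt2a, are known for recurrent lesions in myeloid disease.

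Cell kind, organ, treatment of the mice and sorting all changed together between the groups and cannot be told apart. In these bulk samples, fewer cells of a type and less RNA per cell cannot be told apart either. Values are MAS5 signals, which the deposited table holds on a linear scale with a trimmed mean of 500 in every array. In the dim range neutrophils replicate 2 differed from the other arrays: its 40th percentile was 132.7, against 45.7 to 52.6 in the other arrays. Granulocyte markers were present in all arrays, with summed signals of 305784 and 343174 in the G-MDSC arrays and 218712 and 269732 in the neutrophil arrays over 14 markers. S100a8, S100a9, Csf3r and Itgam did not pass the test between the groups, but 7 of the 14 were higher in G-MDSC, among them the granule genes Mpo (5.12 on the log2 scale), Camp (5.10), Ltf (4.38) and Prtn3 (4.16), and Elane, which lay below the 40th percentile in neutrophils replicate 2. Macrophage markers were present as well, with summed signals over 17 markers of 18344 and 18486 in the G-MDSC arrays and 45156 and 67064 in the neutrophil arrays. Of the 17 tested, 10 were lower in G-MDSC. In G-MDSC replicate 1, 2 of the 17 lay at or below the 40th percentile, and 0 did in each other array. Other cell type lists differed as well. Of 14 monocyte and dendritic cell markers 8 were lower, and the mast cell and basophil list had 5 lower and 1 higher of 10. Its mast cell genes Cma1 and Mcpt4 lay below the 40th percentile in both G-MDSC arrays, and its basophil gene Mcpt8, the higher one, in both neutrophil arrays. The platelet genes Pf4 (-6.31) and Ppbp (-4.59) were lower, 2 of 9 on that list. Of 13 B and plasma cell markers 3 were higher, led by Jchain (4.49), and 2 were lower. Of 11 T and NK cell markers 1 was lower. None of 9 erythroid markers was called by limma, with 1 at an unadjusted p under 0.05. Beside these counts, 8.30% of all genes tested were higher in G-MDSC and 8.05% lower. The part of these cells and of granule gene expression in the differences below was not tested.

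Chromatin modifier genes were more often higher than lower in G-MDSC. By limma, with p-values adjusted by Benjamini-Hochberg over all 13139 genes tested, 16 of the 61 members tested were higher in G-MDSC (26.2%), where 8.30% of all genes were. At the same threshold of 0.05, 2 members were lower (3.28%), where 8.05% of all genes were. The median log2 difference, G-MDSC minus neutrophils on the log2(signal + 16) scale, was 0.64 over the members and -0.18 over all genes. The members were brighter than all genes, with a median of the mean log2 signal of 9.95 against 8.53. With a filter at the 60th percentile, 29.8% of 57 members were higher, where 12.1% of 9503 genes were. The medians were then 0.69 over the members and 0.05 over all genes. The part of brightness in the contrast with all genes was not tested. Both G-MDSC arrays lay above both neutrophil arrays for 32 members, and below them for 8; of all genes, 27.3% lay above and 32.2% below. The other 21 members overlapped between the groups. The 18 called members all differed at least 2-fold and included genes of every class except the DNA methyltransferases and Tet dioxygenases. The calls rest on the variance limma shares among genes of like intensity: without that intensity trend Sirt3 alone stayed called, and without any sharing limma called 0 members, with 10 at an unadjusted p under 0.05. Quantile normalization ended the calls of Ep300, Ezh1, Kat5, Kdm5b, Kdm6a, Kmt2c and Setd1b, and median scaling those of Eed, Ezh1, Kdm2b, Kdm5b, Kmt2c and Kmt5a. Median scaling turned no called member round, and of all genes 1104 were then higher and 732 lower, against 1091 and 1058 without it. With 2 arrays a group no exact permutation test can give a p below 0.33, and nothing in the labels says that the samples of a group came from different mice, so the p-values cover the spread among these 4 arrays alone, which may be technical.

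**Figure D1:**
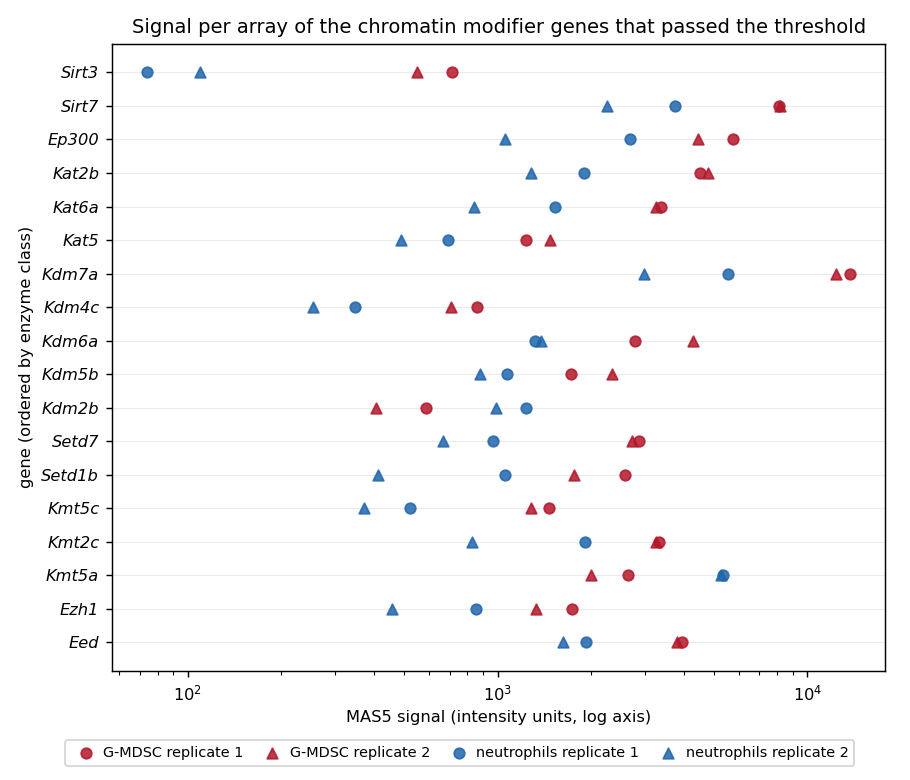
Signal of the 18 chromatin modifier genes that passed the threshold, per array, on a log axis in MAS5 intensity units. Red symbols are G-MDSC and blue symbols neutrophils, with circles for replicate 1 and triangles for replicate 2. Both red symbols lie to the right of both blue symbols in 16 genes and to the left of them in Kdm2b and Kmt5a.

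**Figure D2:**
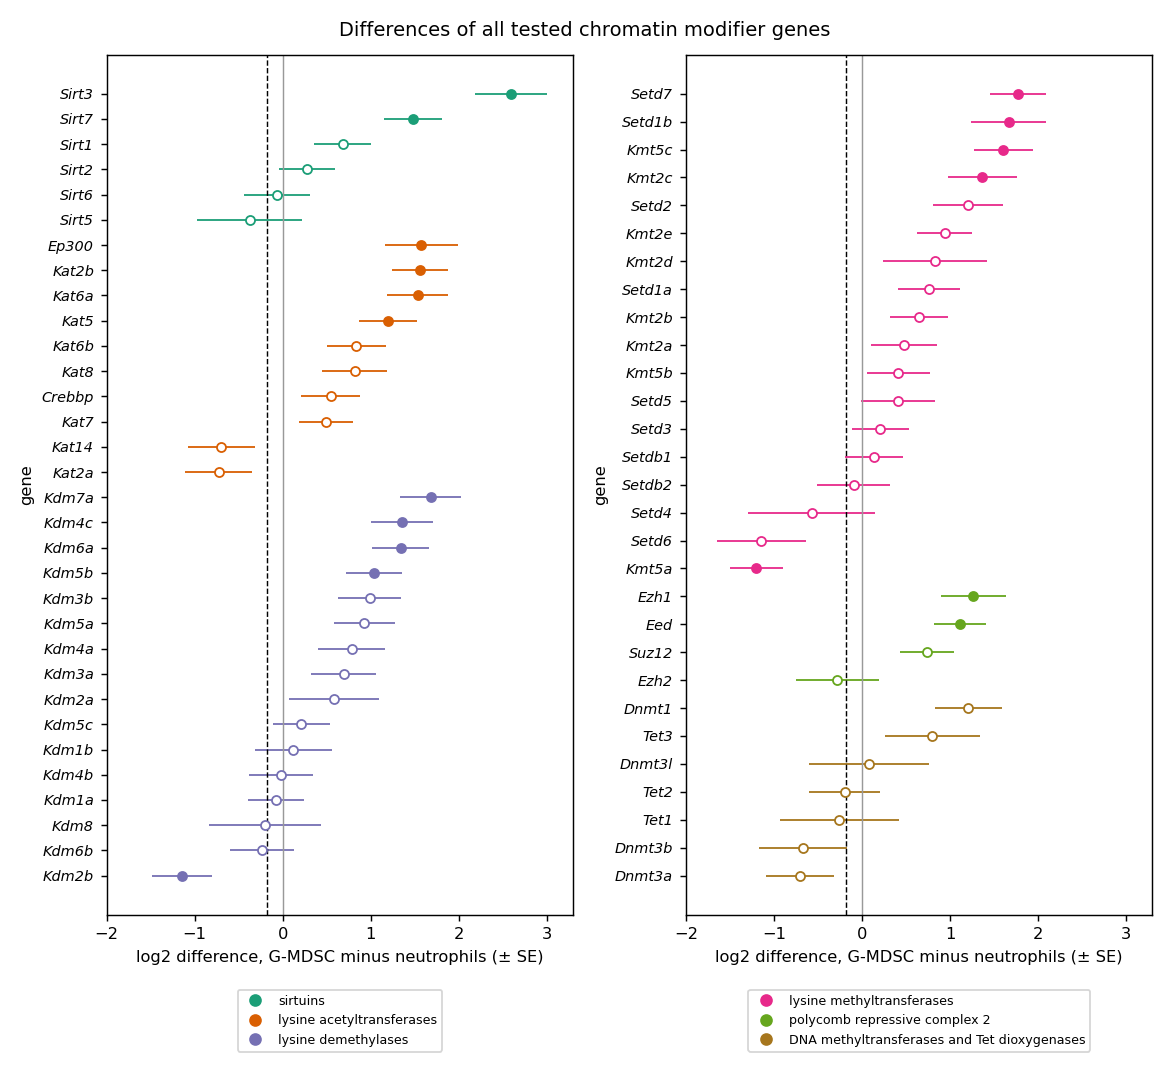
Log2 difference, G-MDSC minus neutrophils, with its SE, of the 61 members tested, ordered within each enzyme class. Filled points passed the threshold, and the dashed line is the median of all genes at -0.18. Sirt3 stands farthest to the right at 2.59 and Kmt5a farthest to the left at -1.20.

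Of the 6 sirtuins tested, 2 were higher in G-MDSC and 0 lower, where 8.30% of all genes were higher and 8.05% lower. Sirt3, the main protein deacetylase of mitochondria, had the largest fitted difference of all members. Its signal was 712 and 549 in the G-MDSC arrays, against 74.0 and 109 in the neutrophil arrays, where the second value lay below its array's 40th percentile. The arrays of the groups were far apart, and limma gave a log2 difference of 2.59 ± 0.41 (SE over 2 arrays a group, adjusted p = 0.00177), a fitted 6.04-fold higher level. Sirt3 had 1 probe set, and with a neutrophil value that low the size of the difference is uncertain. Its call was lost without G-MDSC replicate 1 (limma adjusted p = 0.0812), although the difference without that array was still 2.41.

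Sirt7, a nuclear and nucleolar deacetylase, had signals of 8100.1 and 8159 in the G-MDSC arrays, against 3733 and 2258 in the neutrophil arrays. The G-MDSC arrays were almost identical, and the neutrophil arrays were spread 0.72 apart on the log2 scale. Its difference of 1.48 ± 0.33 (limma adjusted p = 0.0106) stayed past the threshold whichever array was left out, with adjusted p-values up to 0.0463. Sirt1, a nuclear deacetylase of histones and transcription factors, had 952 and 964 in the G-MDSC arrays and 675 and 517 in the neutrophil arrays. The groups did not overlap, but the difference of 0.68 ± 0.32 did not pass (limma adjusted p = 0.188), while it did without neutrophils replicate 1. Sirt2, a largely cytoplasmic tubulin deacetylase, overlapped between the groups, with 1785 and 2312 in the G-MDSC arrays and 1936 and 1446 in the neutrophil arrays. Differences were -0.06 for Sirt6 and -0.37 for the mitochondrial desuccinylase Sirt5, and these were smaller than their standard errors of 0.38 and 0.60. Sirt4 was too dim to test, with 7.64 and 30.5 in the G-MDSC arrays and 63.4 and 132 in the neutrophil arrays.

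Lysine acetyltransferases separated the groups in all 10 genes tested, with the probe sets used. Of all genes, 27.3% lay above in both G-MDSC arrays and 32.2% below, and 8.30% were called higher and 8.05% lower. Both G-MDSC arrays were above both neutrophil arrays in 8 of them and below in Kat2a and Kat14, and 4 were called higher and 0 lower. Ep300, which encodes the coactivator p300, had signals of 5768 and 4425 in the G-MDSC arrays, against 2678 and 1059 in the neutrophil arrays. It was higher by 1.57 ± 0.41 on the log2 scale (limma adjusted p = 0.0238). Its close paralog Crebbp had 3826 and 4261 in the G-MDSC arrays and 3588 and 2127 in the neutrophil arrays, a smaller difference of 0.54 ± 0.33 that did not pass (limma adjusted p = 0.305). Whether these paralogs differed from each other in their change was not tested.

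Kat2b, the PCAF acetyltransferase, had 4494 and 4774 in the G-MDSC arrays, against 1903 and 1280 in the neutrophil arrays. The difference of 1.56 ± 0.32 (limma adjusted p = 0.00692) held in each of the 4 fits with an array left out. Kat2a, the GCN5 enzyme and the paralog of Kat2b, lay the other way, with 247 and 183 in the G-MDSC arrays and 377 and 349 in the neutrophil arrays, but its difference of -0.73 ± 0.39 did not pass (limma adjusted p = 0.235). Kat14, a subunit of the ATAC complex, was at -0.70 ± 0.38.

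The MYST family of acetyltransferases lay above neutrophils in each of its 5 genes. Kat6a, the MOZ enzyme needed for blood stem cells, had 3368 and 3255 in the G-MDSC arrays, against 1530.3 and 840.5 in the neutrophil arrays. It was higher by 1.53 ± 0.35 (limma adjusted p = 0.0119). Kat5, the TIP60 enzyme of the DNA damage response, had 1234 and 1473 in the G-MDSC arrays, against 690.3 and 486 in the neutrophil arrays, and was higher by 1.20 ± 0.33 (limma adjusted p = 0.0305). Kat6b, Kat8 and Kat7 had differences of 0.84, 0.82 and 0.49 that did not pass, and Kat7 read 1479 and 1388 in the G-MDSC arrays and 1041 and 991 in the neutrophil arrays. Without G-MDSC replicate 1 only Kat2b of this class stayed called, with limma adjusted p-values of 0.0772 for Ep300, 0.0526 for Kat6a and 0.158 for Kat5. Kat5 was also lost without G-MDSC replicate 2 (limma adjusted p = 0.316).

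Lysine demethylases rose in part: of 16 tested, 4 were higher (25%) and 1 was lower (6.25%) in G-MDSC. Of all genes, 8.30% were higher and 8.05% lower. Kdm7a, a JmjC enzyme that erases repressive histone methylation, had signals of 13728 and 12383 in the G-MDSC arrays, against 5532 and 2978 in the neutrophil arrays. The difference of 1.68 ± 0.35 (SE, n = 2 per group; limma adjusted p = 0.0076) was kept with each array left out. A second probe set of Kdm7a read 7238 and 9364 in the G-MDSC arrays, against 2881 and 2850 in the neutrophil arrays, and its difference was 1.52. No other demethylase was called in all 4 fits with an array left out.

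Kdm6a, the UTX demethylase that opposes polycomb, had 2769 and 4287 in the G-MDSC arrays, against 1319 and 1381 in the neutrophil arrays. It was higher by 1.34 ± 0.32 (limma adjusted p = 0.0159), a call lost without G-MDSC replicate 2 (limma adjusted p = 0.283). Its relative Kdm6b, the JMJD3 demethylase that inflammatory signals induce in macrophages, had 7790 and 6693 in the G-MDSC arrays and 12025 and 6008 in the neutrophil arrays. The groups overlapped, since neutrophils replicate 2 lay below both G-MDSC arrays, and the difference of -0.24 ± 0.36 (limma adjusted p = 0.697) turned to 0.0016 with median scaling. A second probe set of Kdm6b read 3670 and 3321 in the G-MDSC arrays and 16046.5 and 3669.5 in the neutrophil arrays. Its difference was -1.13 ± 0.58 (limma adjusted p = 0.29 with each probe set tested on its own). The other kept probe set of Kdm6b was at -0.035. In the same arrays 15 of 21 NF-kappaB target genes were lower in G-MDSC, where 8.05% of all genes were. Their median log2 difference was -2.66.

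Kdm4c, which acts on trimethylated histone H3, had 861 and 709 in the G-MDSC arrays, against 346 and 253 in the neutrophil arrays, and was higher by 1.35 ± 0.35 (limma adjusted p = 0.0224). Kdm5b, which removes the promoter mark set by the Kmt2 enzymes, had 1724 and 2341 in the G-MDSC arrays, against 1073 and 881 in the neutrophil arrays, and was higher by 1.04 ± 0.32 (limma adjusted p = 0.0482). Both calls were lost without either G-MDSC array, with limma adjusted p-values of 0.332 and 0.144 for Kdm4c and 0.153 and 0.488 for Kdm5b. Kdm2b, which recruits a polycomb complex to CpG islands, was the called demethylase in the other direction. It had 588 and 406 in the G-MDSC arrays, against 1231 and 986 in the neutrophil arrays, a difference of -1.15 ± 0.34 (limma adjusted p = 0.0412) that was lost without G-MDSC replicate 1 (0.122) or 2 (0.448). Its paralog Kdm2a ranged more widely within neutrophils than between the groups, with 3207 and 2795 in the G-MDSC arrays and 3955 and 997 in the neutrophil arrays.

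The remaining demethylases gave no call. Differences were 0.99 for Kdm3b, 0.93 for Kdm5a, 0.78 for Kdm4a and 0.69 for Kdm3a, and each of these passed without neutrophils replicate 1. Kdm5c (0.21), Kdm1b (0.12), Kdm4b (-0.02), Kdm1a (-0.08) and Kdm8 (-0.20) differed by less than their standard errors, which ran from 0.31 to 0.63. Kdm1a encodes LSD1, an amine oxidase that granulocyte differentiation requires. Kdm4d and the Y-linked Kdm5d were too dim to test, with 6.15 and 49.1 in the G-MDSC arrays and 42.8 and 142 in the neutrophil arrays for Kdm4d, and 18.4 and 42.9 in the G-MDSC arrays and 51.6 and 77.2 in the neutrophil arrays for Kdm5d.

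Among the 18 lysine methyltransferases of the Kmt and Setd families, 4 were higher (22.2%) and 1 was lower (5.56%) in G-MDSC. Of all genes, 8.30% were higher and 8.05% lower. Setd7, which methylates histone H3 and many non-histone proteins, had signals of 2855 and 2721 in the G-MDSC arrays, against 966 and 666 in the neutrophil arrays. Neither group's arrays came near the other's, and the difference of 1.78 ± 0.32 (SE, n = 2 per group; limma adjusted p = 0.00369) was kept with each array left out. The H4 methyltransferases Kmt5c and Kmt5a differed in opposite directions. Kmt5c, which adds further methyl groups to lysine residues that Kmt5a has monomethylated, had 1469 and 1286 in the G-MDSC arrays, against 521 and 372 in the neutrophil arrays, and was higher by 1.61 ± 0.33 (limma adjusted p = 0.0076). Kmt5a, needed for mitosis and genome stability, had 2632 and 2002 in the G-MDSC arrays, against 5332 and 5242 in the neutrophil arrays, a difference of -1.20 ± 0.30 (limma adjusted p = 0.0199). The third enzyme of the family, Kmt5b, had a difference of 0.41 ± 0.36. Without G-MDSC replicate 1 the limma adjusted p was 0.102 for Kmt5c and 0.0668 for Kmt5a, and without G-MDSC replicate 2 it was 0.277 for Kmt5a.

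The Kmt2 and Setd1 genes encode the catalytic subunits of the COMPASS-like complexes, which mark active promoters and enhancers, with Kmt2e as a relative of doubtful enzymatic activity. All 7 had positive differences, and 2 were called higher, where 8.30% of all genes were. Setd1b had 2571 and 1769 in the G-MDSC arrays, against 1061 and 410.2 in the neutrophil arrays, and was higher by 1.67 ± 0.43 (limma adjusted p = 0.0224). Kmt2c, an enhancer methyltransferase, had 3309 and 3245 in the G-MDSC arrays, against 1915 and 826 in the neutrophil arrays, and was higher by 1.37 ± 0.39 (limma adjusted p = 0.0339). Setd1b was lost without G-MDSC replicate 1 (limma adjusted p = 0.114). Kmt2c was lost without G-MDSC replicate 1 (0.0966), G-MDSC replicate 2 (0.0846) or neutrophils replicate 2 (0.0601), where its difference was 0.77.

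The other Kmt2 and Setd1 genes did not pass. Kmt2e had 6233 and 5614 in the G-MDSC arrays and 3737 and 2532 in the neutrophil arrays, a difference of 0.94 ± 0.31 (limma adjusted p = 0.065). Kmt2d had 4399 and 2665 in the G-MDSC arrays and 4294 and 852 in the neutrophil arrays. Its neutrophil arrays differed 2.31 from each other on the log2 scale, more than its difference between the groups of 0.83 ± 0.59. Setd1a, Kmt2b and Kmt2a were at 0.76, 0.64 and 0.47. Without neutrophils replicate 1 all 7 genes were called, and without neutrophils replicate 2 only Setd1b was.

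Of the remaining Setd genes, Setd2, the methyltransferase that travels with elongating RNA polymerase, was at 1.21 ± 0.40 (limma adjusted p = 0.0608). Setd6, which methylates the NF-kappaB subunit RelA, had signals of 84.9 and 104 in the G-MDSC arrays and 174 and 294 in the neutrophil arrays, and its difference of -1.14 ± 0.51 did not pass (limma adjusted p = 0.159). Setd5 and Setd3, an actin histidine methyltransferase, were at 0.41 and 0.21. Setdb1 and Setdb2, which silence genes through histone H3, were at 0.14 and -0.10, and Setd4 was at -0.57 ± 0.72.

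Promoter sequence is shown for the member with the largest fitted rise, Sirt3, and for the methyltransferase with the largest fitted rise, Setd7. It is also shown for the member with the largest fitted fall, Kmt5a. The sequences are RefSeq windows of GRCm38.p6 from 250 bases before to 50 bases after a start, in the direction of transcription. Capitals mark matches to 4 motifs searched on both strands: TTTNNCGC, an E2F-like motif; GGG and TTTCC with any 2 bases between them, an NF-kappaB-like motif; TGACGTCA, the cyclic AMP response element; and GGGCGG, the GC box. No matches of different motifs overlapped in the windows of called members.
Sirt3, chr7:140881820-140882119, minus strand: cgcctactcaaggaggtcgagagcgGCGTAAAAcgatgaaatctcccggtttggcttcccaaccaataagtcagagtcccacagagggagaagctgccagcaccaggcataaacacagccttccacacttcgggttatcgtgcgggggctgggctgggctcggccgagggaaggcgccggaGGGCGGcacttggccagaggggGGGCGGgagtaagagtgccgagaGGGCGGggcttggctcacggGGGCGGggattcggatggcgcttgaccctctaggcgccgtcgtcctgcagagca
Setd7, chr3:51560774-51561073, minus strand: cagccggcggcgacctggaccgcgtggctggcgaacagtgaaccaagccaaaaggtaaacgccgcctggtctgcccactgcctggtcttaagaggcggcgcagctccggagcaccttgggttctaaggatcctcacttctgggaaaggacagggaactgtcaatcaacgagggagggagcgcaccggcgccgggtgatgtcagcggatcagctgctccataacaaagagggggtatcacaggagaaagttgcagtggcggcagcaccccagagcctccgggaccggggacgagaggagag
Kmt5a, chr5:124439680-124439979, plus strand: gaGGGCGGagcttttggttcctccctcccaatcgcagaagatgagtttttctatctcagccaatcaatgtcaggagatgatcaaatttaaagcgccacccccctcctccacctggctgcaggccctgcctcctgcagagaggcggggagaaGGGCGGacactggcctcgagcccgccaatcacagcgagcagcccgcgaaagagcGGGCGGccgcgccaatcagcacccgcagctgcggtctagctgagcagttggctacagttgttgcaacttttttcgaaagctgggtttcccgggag
The Sirt3 window shown holds GC boxes and an E2F-like match, the Kmt5a window shown holds GC boxes, and the Setd7 window holds none of the 4 motifs. Sirt3 has a second window, at chr7:140882260-140882559, which holds none of them, and Kmt5a has 3 windows, each with a GC box.

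Promoter windows were found for 55 of the 64 members, 77 windows in all. The GC box was in 64.9% of the members' windows and in 35.7% of all 32851 windows, and the E2F-like motif in 10.4% and 5.17%. The NF-kappaB-like motif was in 1.30% of the members' windows and in 1.63% of all. TGACGTCA was found in 0 of the 77 windows, and in 1.79% of all. Members carried a median of 22 CpG dinucleotides per window, against 7 over all windows. The GC box was in 50% of 18 windows of 14 members called higher and in 67.3% of 52 windows of 39 members not called. The members called lower with windows were 2 genes, Kdm2b and Kmt5a, with 7 windows between them, of which 85.7% held it. Windows of a gene can overlap, as 2 of Kdm2b do, and a match is a description of letters only.

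Polycomb repressive complex 2 had 2 of its 4 genes called higher, where 8.30% of all genes were. Eed, the subunit that reads the complex's own mark, had signals of 3926 and 3792 in the G-MDSC arrays, against 1936 and 1623 in the neutrophil arrays, and was higher by 1.12 ± 0.30 (SE, n = 2 per group; limma adjusted p = 0.0257). Ezh1, the catalytic subunit of resting cells, had 1737 and 1327 in the G-MDSC arrays, against 850 and 456 in the neutrophil arrays, and was higher by 1.26 ± 0.37 (limma adjusted p = 0.0381). Suz12, the scaffold subunit, had 4058 and 4237 in the G-MDSC arrays and 2971 and 2064 in the neutrophil arrays, and its difference of 0.74 ± 0.31 did not pass (limma adjusted p = 0.138). Both calls were lost without G-MDSC replicate 1 (0.22 for Eed and 0.324 for Ezh1) and without G-MDSC replicate 2 (0.193 and 0.0899), and Ezh1 also without neutrophils replicate 2 (0.0503).

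Ezh2, the catalytic subunit of dividing cells, did not follow Ezh1. It had 1097 and 355 in the G-MDSC arrays and 897 and 652 in the neutrophil arrays, so the G-MDSC arrays lay on either side of the neutrophil arrays, and the difference was -0.28 ± 0.47 (limma adjusted p = 0.722). It was 0.51 without G-MDSC replicate 2 and -1.07 without G-MDSC replicate 1. Genes of a cell cycle list differed between the same arrays, with summed signals over 37 genes of 50202 and 24760 in the G-MDSC arrays and 18951 and 17807 in the neutrophil arrays. Its median in G-MDSC replicate 2 minus replicate 1 was -1.10 on the log2 scale, where Ezh2 was at -1.59 and Dnmt1 at -0.99. Of 36 cell cycle genes tested, 12 were higher in G-MDSC, but 1 without G-MDSC replicate 1. Of all genes, 8.30% were higher with all arrays. The part of dividing cells in these values was not tested.

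None of the 7 DNA methyltransferase and Tet genes passed the threshold in limma, and 1 had an unadjusted p under 0.05. That gene was Dnmt1, the maintenance methyltransferase of replicating DNA. Its signal was 1496 and 745 in the G-MDSC arrays, against 485 and 413 in the neutrophil arrays, and the difference of 1.21 ± 0.38 had a limma adjusted p of 0.0531. It just missed the threshold, and it passed without G-MDSC replicate 2 or either neutrophil array, but not without G-MDSC replicate 1 (0.686). Both other probe sets of Dnmt1 differed in the same direction. With each probe set tested on its own, neither they nor the probe set used gave a call. In neutrophils replicate 2 the other probe sets read 40.9 and 49.8, under the 40th percentile of that array, so the sizes of their differences are not given.

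The de novo methyltransferase Dnmt3a had 354 and 322 in the G-MDSC arrays and 772 and 404 in the neutrophil arrays. The groups did not overlap, and the difference of -0.70 ± 0.39 did not pass (limma adjusted p = 0.259), except without neutrophils replicate 2, where it was -1.16 (0.00736). All 4 other kept probe sets of Dnmt3a had differences below 0, from -1.05 to -0.61. Dnmt3b was at -0.67 ± 0.50 and Dnmt3l, a cofactor without activity of its own, at 0.08 ± 0.68. Tet2, which restrains myeloid expansion, had 3209 and 2285 in the G-MDSC arrays and 4792 and 2014 in the neutrophil arrays. The groups overlapped, and its difference was -0.20 ± 0.41, or -0.82 without neutrophils replicate 2, where it passed (limma adjusted p = 0.0406). Tet3 was at 0.80 ± 0.54 and Tet1 at -0.26 ± 0.67.

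The neutrophil replicates disagreed over many of these genes. Neutrophils replicate 2 was below replicate 1 in 75.4% of the members (46 of 61), against 37.2% of all genes. The median difference was -0.45 over the members and 0.26 over all genes. All genes are a dimmer set than the members, with a median of the mean log2 signal of 8.53 against 9.95. Replicate 2 read higher in the dim range, with a 40th percentile of 132.7 against 51.4 in replicate 1. The part of brightness in this contrast was not tested. In G-MDSC the median of replicate 2 minus replicate 1 was -0.09 over the members and 0.02 over all genes. Without neutrophils replicate 2 the median member difference was 0.36, against 0.03 for all genes, and 17 members were higher and 4 lower, of which 16 had been called with all arrays. In the same fit 13.0% of all genes were higher and 11.1% lower. Without neutrophils replicate 1 the median member difference was 0.92, against -0.35 for all genes. Then 35 members were higher and 4 lower, where 18.4% of all genes were higher and 26.4% lower, and all 18 calls remained. Leaving out a G-MDSC array cost more calls. In such a fit the spread within groups comes from the neutrophil pair alone. The neutrophil replicates correlated at 0.91 over all genes tested, against 0.97 for the G-MDSC replicates. In the fits without a neutrophil array the spread within groups comes from the G-MDSC pair alone. A call lost or gained in these fits therefore cannot be read as the part of the array left out. That part was not tested. The median member difference was 0.55 without G-MDSC replicate 1 and 0.67 without G-MDSC replicate 2, against 0.64 with all arrays. Kat2b, Kdm7a, Setd7 and Sirt7 were called in all 4 of these fits.

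**Figure D3:**
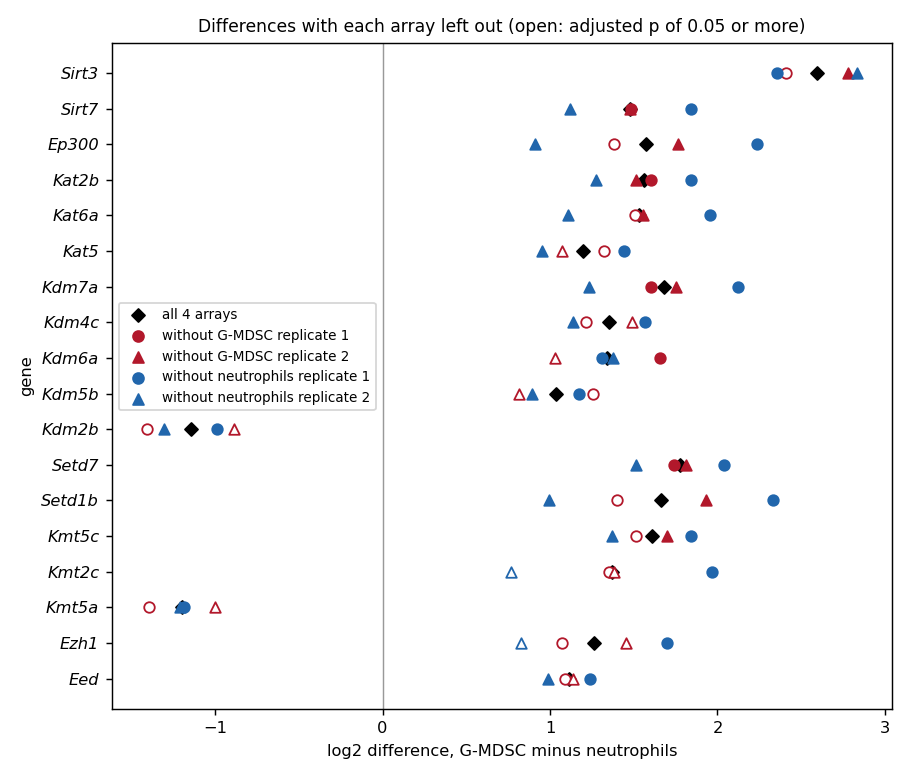
Log2 difference of the 18 called members with all arrays (black diamonds) and with each array left out (red, a G-MDSC array; blue, a neutrophil array; open where the limma adjusted p was 0.05 or more). No difference changes its sign, and open symbols are missing in Sirt7, Kat2b, Kdm7a and Setd7.

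**Figure D4:**
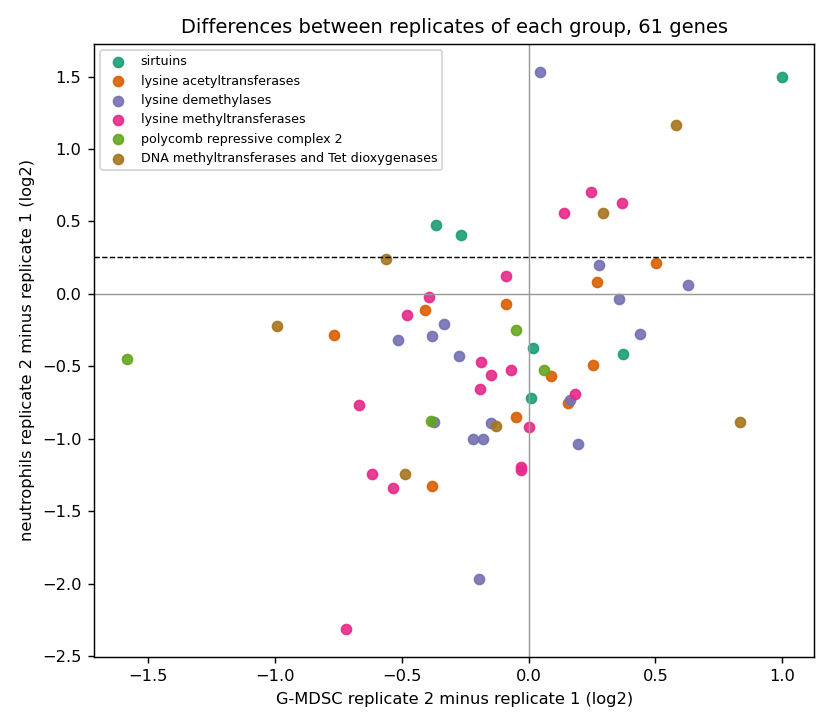
Log2 difference between replicates for the 61 members, replicate 2 minus replicate 1, in G-MDSC (horizontal) and in neutrophils (vertical). The dashed line is the median of all genes in neutrophils at 0.26, and 46 of the 61 members lie below 0 on the vertical axis.

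Other probe sets of the members gave a second reading of the same arrays. The 64 members had 168 probe sets, of which 141 passed the filter on low signals. Besides the 61 probe sets used above, 80 others of 38 members were kept, and their median difference was 0.14, against -0.20 for all kept probe sets. Among 28754 kept probe sets, each tested as a feature of its own, 8 of the 61 were higher and 1 lower. In that fit 3 of the 80 others were higher and 0 lower, where 3.72% of all were higher and 4.31% lower. The 3 belonged to Kdm6a (1.28 ± 0.31), Setd1b (1.87 ± 0.41) and Kdm7a (1.52 ± 0.30). Of the called members, 13 had another kept probe set, and 16 of these 20 probe sets differed in the same direction as the one used. All 4 with the opposite sign were dim probe sets of Eed, Kdm5b and Setd7. With the median of a gene's probe sets in each array, 11 members were higher and 2 lower. The median difference over the members tested was then 0.34. This setting ended the calls of Eed, Ezh1, Kat2b, Kat5, Kdm5b and Setd7, and Dnmt1 was called. The calls of Kat2b and Setd7 thus depended on the probe set used, although they held with each array left out.

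Genes that work beside the members were read from fixed lists. Beside the counts below, 8.30% of all genes were higher and 8.05% lower. Of 24 other histone acetyltransferases and subunits of their complexes, 8 were higher in G-MDSC and 0 lower, with a median of 0.46. The coactivator Ncoa1 was higher by 1.97 ± 0.38 and Ing2, a reader of methylated histone H3, by 1.70 ± 0.31 (SE, n = 2 per group). Of 15 acetyl-lysine readers, 2 were higher, Phip (1.42 ± 0.32) and Baz2a (1.24 ± 0.30). Of 12 other subunits and partners of the COMPASS-like complexes, not all of them shared, 0 were called by limma. Of these 12 genes, 3 had an unadjusted p under 0.05, and their median was 0.51. Without G-MDSC replicate 1 or 2 the acetyltransferase list had 3 higher, and the reader list 0. Ing2 was lost without G-MDSC replicate 2 (limma adjusted p = 0.0662), while Ncoa1 was kept with each array left out.

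Most of the other histone methyltransferases ran the opposite way. Of 19 tested, 7 were lower in G-MDSC (36.8%, against 8.05% of all genes) and 0 higher, with a median of -0.49. Differences were below 0 in 14 and above 0 in 5. Those above 0 included the lysine methyltransferases Nsd1 (1.06), Prdm2 (0.85), Ehmt1 (0.78) and Nsd3 (0.55), which did not pass. Prmt7, an arginine methyltransferase, had signals of 85.8 and 15.5 in the G-MDSC arrays, against 384 and 507 in the neutrophil arrays, a fitted difference of -3.01 ± 0.61 (limma adjusted p = 0.00692). The G-MDSC replicate 2 value lay below the 40th percentile of its array, 52.6, so the size of that difference is uncertain. Prmt2 had 177 and 73.7 in the G-MDSC arrays, against 601 and 723 in the neutrophil arrays, a difference of -2.36 ± 0.44. Both were called with each array left out. The other called genes, named after their values were seen, were the arginine methyltransferases Prmt1, Prmt5 and Prmt6 and the SMYD lysine methyltransferases Smyd2 and Smyd5. The count was 4 without G-MDSC replicate 1 and 2 without G-MDSC replicate 2.

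Polycomb partners and deacetylases were mixed. The shares of polycomb partners called, 11.5% higher and 3.85% lower, were near those of all genes, 8.30% and 8.05%. Of 26 polycomb partners, 3 were higher and 1 lower, led by Asxl1, a subunit of the histone H2A deubiquitinase, with 4814 and 3918 in the G-MDSC arrays, against 1147 and 463 in the neutrophil arrays (2.55 ± 0.41; limma adjusted p = 0.00189). Pcgf1, a subunit of the Kdm2b complex, was higher by 1.94 ± 0.51, a call lost without G-MDSC replicate 1 or 2. Its signals were 257 and 318 in the G-MDSC arrays, against 56.5 and 69.2 in the neutrophil arrays. The neutrophils replicate 2 value lay below the 40th percentile of its array, so the size of the Pcgf1 difference is uncertain. Jarid2, a polycomb cofactor, was at -1.11 ± 0.32, a call also lost without G-MDSC replicate 1 (0.133) or 2 (0.324). Of 10 JmjC and related genes outside the members, 3 were higher, led by Riox1 (1.79 ± 0.32) and the citrullinating enzyme Padi4 (1.72 ± 0.31), and 2 were lower, Riox2 (-1.64 ± 0.38) and Jarid2. Of 14 DNA methylation partners only Gadd45b was called (-1.68 ± 0.39), and not without G-MDSC replicate 1 (0.178). Among 10 histone deacetylases, Hdac4 (1.62 ± 0.31) and Hdac5 (1.33 ± 0.31) were higher and Hdac2 (-1.44 ± 0.36) lower. Hdac5 was lost without G-MDSC replicate 1 (0.0602) or 2 (0.222), Hdac2 without G-MDSC replicate 2 (0.299) and Riox2 without G-MDSC replicate 1 (0.054) or 2 (0.0846).

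**Figure D5:**
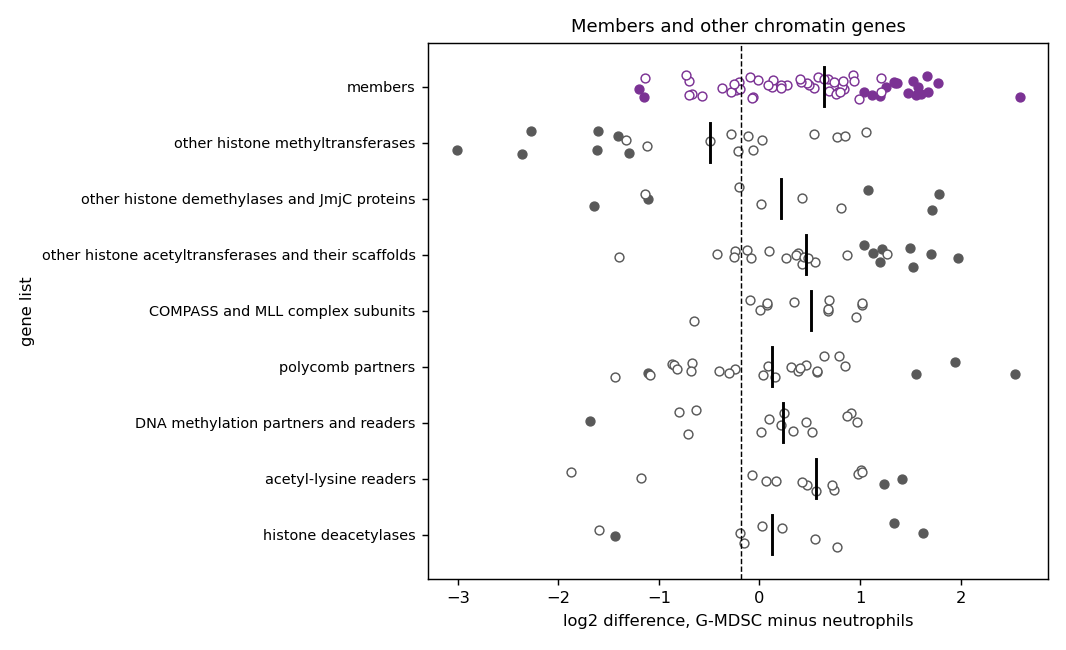
Log2 difference, G-MDSC minus neutrophils, of the 61 members tested and of genes of 8 other chromatin lists, 1 point per gene. Filled points passed the threshold, black bars are list medians and the dashed line is the median of all genes at -0.18. The members' median lies at 0.64 and that of the other histone methyltransferases at -0.49.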

How the data were processed

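Total RNA (100 ng per sample) of 2 G-MDSC and 2 neutrophil samples was measured on 1 array each. Per the submitters' processing notes, the authors used GCOS 1.4 and MAS5, and the deposited table gives linear signal intensities. The mean of each array without the outer 2% at either end was 500. There is no sequencing depth here, and precision is limited by the number of arrays. Of 45101 probe sets, 34945 name 1 gene, 932 several and 9160 none, and 64 are controls; names come from the platform annotation and were matched by gene ID to RefSeq (GRCm38.p6) for 34741.

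Signals were analysed as log2(signal + 16), a scale that shrinks the differences of dim genes. Kept were probe sets above the 40th percentile in 2 or more arrays. Each gene was represented by its brightest kept probe set (for members, the probe set of the rule), which left 13139 genes. G-MDSC minus neutrophils was fitted over all genes with limma 3.58.1 (lmFit, eBayes with an intensity trend) in R 4.3.3, two-sided, adjusted by Benjamini-Hochberg. Python 3.11.15, pandas 2.3.3, numpy 2.4.6 and matplotlib 3.10.9 were used for tables and plots. The fit was tested on simulated data that had the same spread for every gene. That test cannot check the intensity trend on which the calls rest. Named were all called members, the 2 brightest uncalled members of each class and, of other lists, up to 2 called genes per direction; other members are given by their differences. Members and lists were chosen with earlier results of these data known. A fit over single probe sets was added after seeing the data. Detection calls, and 1 probe set that names Kdm6b with another gene, were not used here.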

Additional observations from a re-analysis of the deposited data

How the results depend on the processing

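The counts rest on the spread that limma shares across genes. Without the intensity trend 1 member was higher (Sirt3) and 0 lower, and of all genes 148 and 331. Without moderation limma called 0 members and 0 genes in either direction, with 10 members and 2379 genes at an unadjusted p under 0.05. Quantile normalization left 9 members higher, median scaling and no filter left 0 and 1 lower, and the other planned settings moved the members' counts by less than 1.5 times. Median scaling moved the median of all genes from -0.18 to 0.05. With the replicate number as a block, 1699 genes were higher and 1607 lower, and 22 and 2 members. The labels do not say that a number marks a shared day or mouse. Deviations of same-numbered arrays correlated at 0.24 across genes, and whether the 2 pairs share more than a number is unknown. With 1 array left out, 5 to 35 members were higher and 0 to 4 lower, and 429 to 2419 genes higher and 561 to 3472 lower; a group left with 1 array is assumed to vary like the other.

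No called member changed its sign. Among uncalled members, differences turned to 0.32 (Tet1), 0.11 (Kdm4b), 0.0925 (Sirt6), 0.12 (Setdb2), 0.22 (Kdm8) and 0.0816 (Setd4) with quantile normalization. They turned to 0.22 (Kdm4b), 0.16 (Kdm1a), 0.17 (Sirt6), 0.14 (Setdb2), 0.0356 (Kdm8), 0.0388 (Tet2) and 0.0016 (Kdm6b) with median scaling. With the median of probe sets Kat7 was at -0.0282 and Setd5 at -0.0082, and with low signals raised to the 40th percentile Dnmt3l was at -0.0865. With 1 array left out, the range crossed 0 for Dnmt3l (-0.20 to 0.36), Ezh2 (-1.07 to 0.51), Kdm1a (-0.27 to 0.11), Kdm1b (-0.0558 to 0.30), Kdm2a (-0.40 to 1.57), Kdm4b (-0.16 to 0.12), Kdm6b (-0.73 to 0.26), Kdm8 (-0.97 to 0.57), Kmt2d (-0.33 to 1.99), Kmt5b (-0.0459 to 0.87), Setd3 (-0.0302 to 0.45), Setd5 (-0.21 to 1.03), Setdb2 (-0.41 to 0.22), Sirt5 (-1.12 to 0.38), Sirt6 (-0.26 to 0.14), Tet1 (-0.84 to 0.33) and Tet2 (-0.82 to 0.42). The cause of these changes was not tested.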

Other observations

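In neutrophils, 9 members lay at least 2-fold lower in replicate 2 than in replicate 1. On the log2 scale the difference was -2.31 for Kmt2d, -1.97 for Kdm2a, -1.34 for Setd1b, -1.33 for Ep300, -1.24 for Tet2, -1.24 for Setd5, -1.22 for Setd2, -1.20 for Kmt2c and -1.04 for Kdm3a. The same genes differed between the G-MDSC replicates by -0.72 for Kmt2d, -0.20 for Kdm2a, -0.54 for Setd1b, -0.38 for Ep300, -0.49 for Tet2, -0.62 for Setd5, -0.03 for Setd2, -0.03 for Kmt2c and 0.20 for Kdm3a. Kdm8, Sirt5 and Tet1 differed at least 2-fold the other way in neutrophils, by 1.53, 1.50 and 1.16.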
